A study of Mus musculus with 10 samples.

Results

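The CC and CXC chemokine ligands were described in lung tumours of mice with and without a targeted glucose transporter gene. Rows of the count table were taken by symbol: Ccl or Cxcl followed by a number and at most a letter a or b, together with Cx3cl1, Xcl1 and Pf4. This gave 40 of 39017 genes, with 39 distinct symbols because Ccl25 is listed under 2 identifiers. After a filter on low counts 26 of the 40 were tested, and the other 14 were too low.

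RNA was sequenced from 10 tumours, 5 labelled KP and 5 labelled KPG1. KP mice develop lung adenocarcinoma once Cre recombinase reaches the lung, and the alleles that start the tumours, carried by both groups, are not reported here. KPG1 mice were in addition homozygous for a floxed allele of Slc2a1, which encodes Glut1, a glucose transporter. For the KP controls one label gives a heterozygous floxed allele and another gives wild type, so KP stands for the control group of the labels. In both groups Cre came from an adenovirus given into the trachea, with the SPC promoter, which confines recombination to cells expressing surfactant protein C. The mice were C57BL/6 males, and lesions were taken 18 weeks and 6 days after the virus; the age of the mice is not given in the sources used here. Tumours were dissociated and cells carrying CD45, the common surface protein of leukocytes, were removed with magnetic beads, so the libraries hold tumour cells and the other CD45-negative cells of the lesion. The labels do not say whether each library came from a separate mouse, and p-values measure the spread between these libraries.

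The libraries held 32427029 to 49534284 counts, with at least 1 count for 20886 to 22583 genes. Levels are given as CPM, the count relative to the TMM-scaled size of the library, and, where genes are compared with each other, as RPKM, which divides CPM by the length of the exons in kilobases. Slc2a1 was at 71.7 to 127 CPM in KP and at 40.8 to 66.8 CPM in KPG1, with no overlap. KP 1 was the highest or lowest tumour for 9 members and KP 5 for 10, and values without a library are given where they decide a result.

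Chemokines are small secreted proteins that guide migrating cells through G-protein-coupled receptors. CXC ligands with a glutamate-leucine-arginine motif attract neutrophils through Cxcr2, CC ligands mainly attract monocytes, lymphocytes and dendritic cells, and Cxcl16 and Cx3cl1 are made as membrane proteins with a chemokine head on a stalk. Many inflammatory chemokine genes are induced by NF-kB downstream of cytokines such as Tnf and the interleukin-1 family, and in the lung both epithelium and macrophages are known to produce them.

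The genes lie in clusters. On mm10, 12 members are on chromosome 5 and 12 on chromosome 11. The neutrophil attractants Cxcl5, Cxcl3, Cxcl1 and Cxcl2 share a stretch of chromosome 5 with Pf4 and Cxcl15, in the order Cxcl5 (90759360 to 90761624), Pf4 (90772435 to 90773383), Cxcl3 (90786103 to 90789600), Cxcl15 (90794534 to 90803067), Cxcl1 (90891241 to 90893115) and Cxcl2 (90903871 to 90905938), all protein-coding and on the plus strand. The promoters of 4 of these neighbours are shown, 3 that share a run of bases and that of Cxcl15, which lies between them and was the most abundant ligand. Each sequence is the 150 bases before the RefSeq start on GRCm38.p6, plus strand, at chr5:90891095-90891244 for Cxcl1, chr5:90903749-90903898 for Cxcl2, chr5:90785951-90786100 for Cxcl3 and chr5:90794384-90794533 for Cxcl15. For Cxcl1 and Cxcl2 the last bases lie inside the GENCODE gene model, which starts further upstream. Capitals mark a run of 11 bases shared by Cxcl1, Cxcl2 and Cxcl3.
Cxcl1: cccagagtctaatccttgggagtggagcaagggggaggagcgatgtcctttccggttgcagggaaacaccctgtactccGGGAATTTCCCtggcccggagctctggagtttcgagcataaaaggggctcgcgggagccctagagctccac
Cxcl2: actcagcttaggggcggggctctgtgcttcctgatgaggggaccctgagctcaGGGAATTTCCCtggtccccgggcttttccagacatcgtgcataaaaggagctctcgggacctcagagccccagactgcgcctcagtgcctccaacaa
Cxcl3: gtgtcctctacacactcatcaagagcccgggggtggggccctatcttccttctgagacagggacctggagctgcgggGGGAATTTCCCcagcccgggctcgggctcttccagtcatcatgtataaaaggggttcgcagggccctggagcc
Cxcl15: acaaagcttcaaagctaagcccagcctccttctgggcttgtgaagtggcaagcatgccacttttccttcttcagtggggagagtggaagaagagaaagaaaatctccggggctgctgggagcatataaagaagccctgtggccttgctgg

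The run GGGAATTTCCC, a palindrome apart from its central base and of the kind NF-kB is known to bind, lies at positions -71 to -61 in Cxcl1, -97 to -87 in Cxcl2 and -73 to -63 in Cxcl3, counted from the RefSeq start. It was found by comparing these sequences and is in 10 of 32851 RefSeq promoter windows (0.0304%), and in no other of the 28 chemokine symbols that had an entry. Cxcl5 and Cxcl16 had no entry and were not searched. The looser pattern GGGNNNNNCC, searched on both strands, is in 35.4% of all windows and in 13 of the 28, with overlapping matches counted 4 times in Cxcl1, 3 times in Cxcl2, 5 times in Cxcl3 and 0 times in Cxcl15. TATAA on either strand is in 14.2% of windows and in 12 of the 28, and TGANTCA, the AP-1 pattern, in 4.24% and in 4. A match is a description of these letters and not a bound site. Cxcl1, Cxcl2 and Cxcl3 thus share the run, and their levels across the tumours are given next.

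Cxcl1 and Cxcl2 had lower fitted values in KPG1, Cxcl3 and Cxcl5 slightly higher ones whose sign changed when single libraries were left out, and none of the 4 passed an adjusted p of 0.05 in limma. Cxcl1 and Cxcl2 had an unadjusted p under 0.05.

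Cxcl1, a ligand of Cxcr2 first known as KC, was the most abundant of the 4, at a mean of 33.5 RPKM over all tumours. Its level was 196, 84.6, 93.5, 43.7 and 38.1 CPM in KP 1 to KP 5 and 35.8, 31.8, 18.4, 21.6 and 64.3 CPM in KPG1 1 to KPG1 5. KP 1 was the highest of all tumours, and only KPG1 5 reached into the KP range. KP averaged 91.2 ± 63.5 CPM and KPG1 34.4 ± 18.2 CPM (SD, n = 5 each). The log2 fold change, KPG1 minus KP throughout, was -1.29 (SE 0.46, limma unadjusted p 0.0160, adjusted p 0.312). Without KP 1 it was -0.95 (limma adjusted p 0.40), and the unadjusted p stayed under 0.05 whichever library was left out. DESeq2 gave an adjusted p of 0.0498. In a bulk sample fewer cells of a type and less RNA per cell cannot be told apart, for this gene and for all those that follow.

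Cxcl2, the mouse MIP-2, was at 18.2, 11.9, 21.3, 10.1 and 10.9 CPM in KP and at 6.91, 9.0, 14.8, 7.06 and 8.29 CPM in KPG1. The 4 KPG1 tumours other than KPG1 3 lay below every KP tumour. Its log2 fold change was -0.63 (SE 0.28, limma unadjusted p 0.0419, adjusted p 0.411), and the unadjusted p stayed under 0.05 in 4 of the 10 fits that left out a library. Cxcl2 and Cxcl3 share 85-base stretches of transcript, the length of a read, over 4.08% of the positions of Cxcl2 and 2.49% of those of Cxcl3, so a small part of their reads cannot be told apart.

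Cxcl3, a further Cxcr2 ligand, was at 14.5, 27.0, 17.3, 19.1 and 3.72 CPM in KP and at 6.49, 27.1, 9.90, 30.1 and 12.6 CPM in KPG1. The groups covered nearly the same range, and the log2 fold change was 0.09 (SE 0.56, limma adjusted p 0.965). It was -0.41 without the low KP 5, and also below 0 without KPG1 2 (-0.13) or KPG1 4 (-0.15). Cxcl5, known as LIX and made mainly by epithelium in the lung, was at 6.61, 3.08, 8.04, 19.97 and 14.0 CPM in KP and at 2.54, 20.2, 12.3, 28.6 and 8.78 CPM in KPG1. It spread about as widely in both groups, and its log2 fold change, 0.25 (SE 0.66, limma adjusted p 0.910), became -0.07 without KP 2, -0.06 without KPG1 4, and 1.04 with quality weights per library (limma adjusted p 0.440). Summed over the 4 genes, the level ran from 66.7 to 235 CPM in KP and from 51.7 to 93.9 CPM in KPG1. Cxcl1 was the largest of the 4 in every tumour except KPG1 4, where it was at 21.6 CPM, below Cxcl3 and Cxcl5. A difference in response between the 4 genes was not tested.

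**Figure D1:**
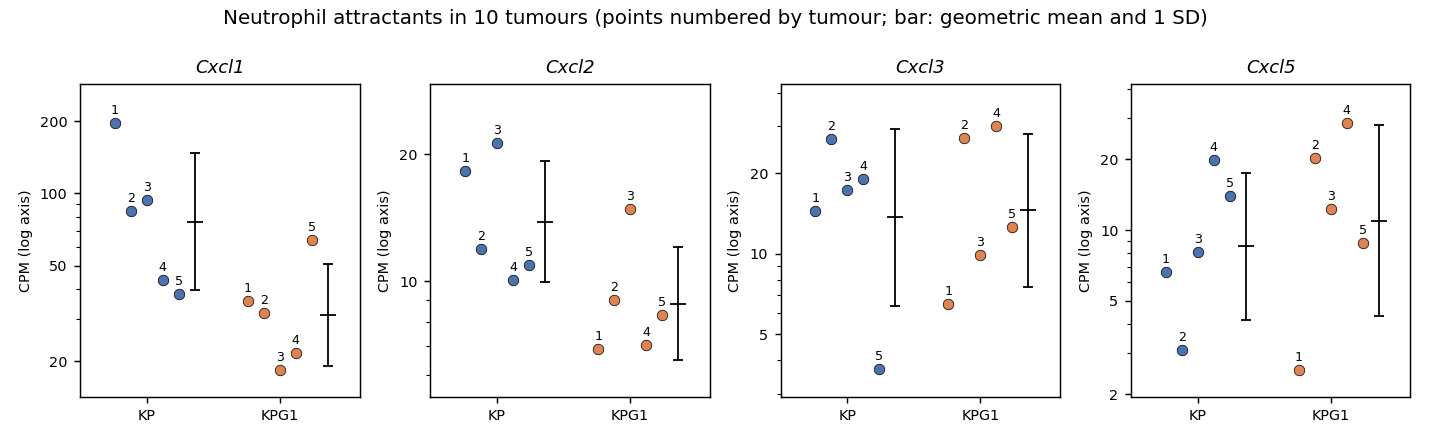
CPM on a log axis of Cxcl1, Cxcl2, Cxcl3 and Cxcl5 in 5 KP and 5 KPG1 tumours; each point is a tumour, numbered as in the labels, and the black mark with its bar is the geometric mean with 1 SD of the log2 values. Cxcl1 runs from 38.1 to 196 CPM in KP and from 18.4 to 64.3 CPM in KPG1, whereas the 2 groups cover nearly the same range for Cxcl3 and Cxcl5.

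Neutrophil markers were read beside these genes. Of 14 fixed markers 9 were tested, 2 with higher and 7 with lower fitted values in KPG1, and none passed the threshold. An unadjusted limma p under 0.05 was found for 5, all lower in KPG1, beside 6.31% of all genes tested. S100a8 was at 1.29 to 4.32 CPM in KP and 0.200 to 1.08 CPM in KPG1, and S100a9 at 2.17 to 7.20 CPM and 0.343 to 1.44 CPM, both without overlap. No overlap was seen for these 2 of the 9, beside 2.81% of all genes tested. Of the same list, Csf3r was at 1.72 to 4.59 CPM in KP and 0.772 to 1.77 CPM in KPG1. Ly6g, Camp, Elane and Mpo were at or near 0, each at most 0.0965 CPM in any tumour. Cxcr2, the receptor of all 4 ligands, was at 0.390 to 11.2 CPM in KP and 1.22 to 19.5 CPM in KPG1 (log2 fold change 1.23, limma adjusted p 0.625). The summed marker level ran from 11.3 to 30.3 CPM in KP and from 8.63 to 24.8 CPM in KPG1. Single genes made much of it in some tumours: Cxcr2 19.5 of the 24.8 CPM in KPG1 4, and Mmp9 16.5 of the 26.4 CPM in KP 1. The part of neutrophils in the levels of Cxcl1 and Cxcl2 was not tested.

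Across all chemokine ligands, Cxcl16 alone passed the threshold in the whole-table test. It was lower in KPG1, so 1 of 26 tested members was called where 28 of 16216 genes were, 0.173% of those tested. Among members, 4 had an unadjusted p under 0.05 with a lower value in KPG1 (Cxcl16, Cxcl1, Cxcl10 and Cxcl2) beside 6.31% of all genes, and 1 with a higher value (Cxcl15) beside 5.26%. The groups did not overlap for Cxcl16 and Cxcl15, 2 of 26, beside 2.81% of all genes. Fitted values were lower in KPG1 for 15 members and higher for 11, with a median log2 fold change of -0.04 beside 0.02 over all genes.

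**Figure D2:**
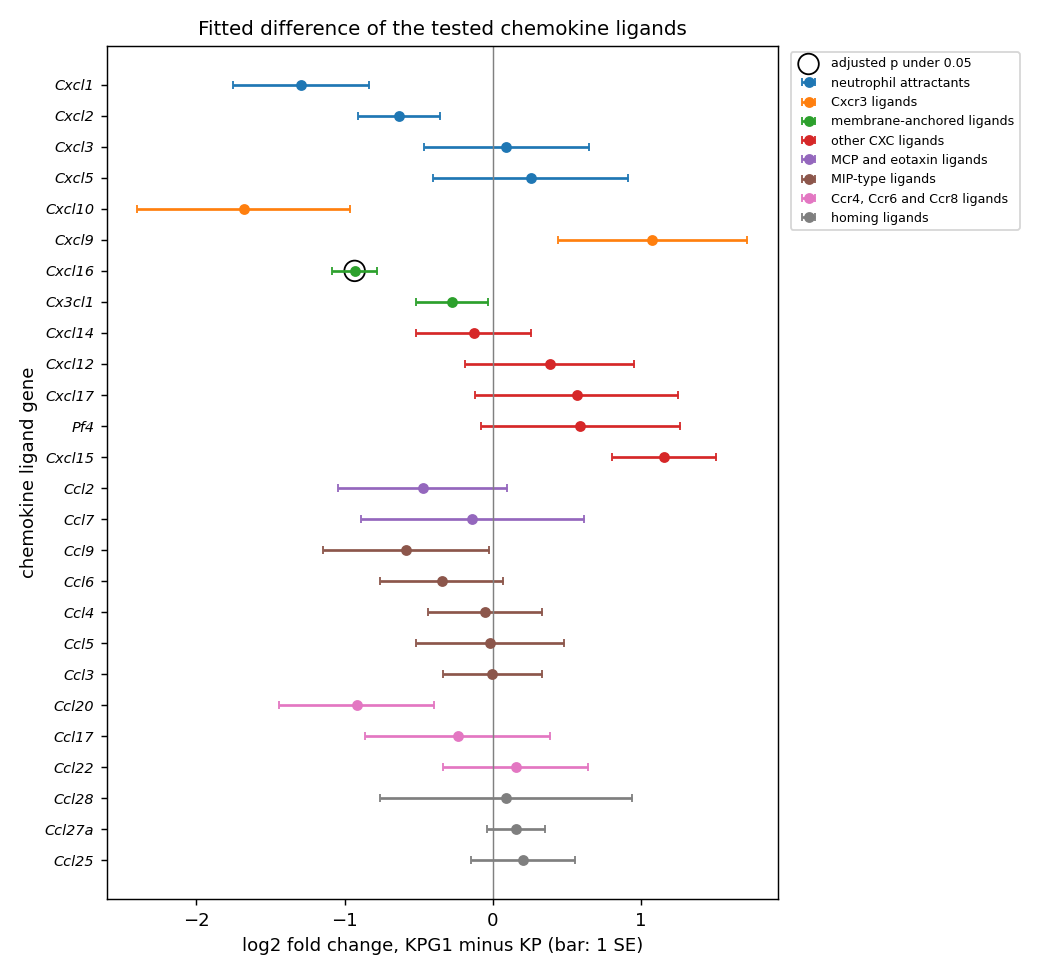
Log2 fold change, KPG1 minus KP, with 1 SE for the 26 tested chemokine ligands, coloured by role and sorted within it; the ring marks an adjusted p under 0.05. The ring sits on Cxcl16 at -0.93 alone, Cxcl10 lies furthest left at -1.68, and Cxcl15 furthest right at 1.16.

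Cxcl16 is a membrane-anchored chemokine and scavenger receptor whose soluble form attracts Cxcr6-positive T and NKT cells. The gene (chromosome 11, 70453983 to 70459984, minus strand) was at 62.9, 65.1, 74.0, 69.0 and 43.0 CPM in KP and at 33.9, 34.9, 28.8, 32.0 and 32.5 CPM in KPG1. Every KPG1 tumour lay below the lowest KP tumour, KP 5, and the KPG1 values were close together. KP averaged 62.8 ± 11.9 CPM and KPG1 32.4 ± 2.34 CPM (SD, n = 5 each). Cxcl16 fell by 0.93 on the log2 scale (SE 0.15, limma adjusted p 0.0430), to 0.524 times the KP level.

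This call was close to the threshold. In the limma fit it was lost when any library but KP 5 was left out (adjusted p up to 0.161 among these), and without KP 5 the log2 fold change was -1.08 with an adjusted p of 0.00233. The call was also lost with no filter on low counts (limma adjusted p 0.0526), with a mean CPM of at least 1 (limma adjusted p 0.0527) and with a replicate block (limma adjusted p 0.194). It was kept with the quasi-likelihood test of edgeR (adjusted p 0.0290) and with DESeq2 (adjusted p 2.46e-06). RLE factors (limma adjusted p 0.0418) and quality weights (limma adjusted p 0.00331) kept it as well. The log2 fold change itself stayed between -1.08 and -0.88 in all 10 fits that left out a library. The gene overlaps Zmynd15 on the opposite strand and shares 14.85% of its read-length positions with it. Zmynd15 was at 2.95 to 6.29 CPM in all tumours, a small level beside Cxcl16.

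Cx3cl1, or fractalkine, the other membrane-anchored ligand, was at 57.7, 115, 117, 133 and 109 CPM in KP and at 79.6, 130, 68.1, 86.4 and 70.6 CPM in KPG1. KP 1 was the lowest of all tumours, and the other KP tumours lay above every KPG1 tumour except KPG1 2. Its fitted log2 fold change was -0.28 (SE 0.24, limma adjusted p 0.696) and -0.48 without KP 1. Its receptor Cx3cr1 was at 1.81 to 4.58 CPM over all tumours (log2 fold change 0.02, limma adjusted p 0.986).

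Cxcl15, or lungkine, is a CXC chemokine of mouse lung epithelium. By length it was the most abundant ligand by far, at a mean of 1466 RPKM, 84.6% of the summed RPKM of the chemokine ligands. Its level was 734, 3082, 2576, 1572 and 2265 CPM in KP and 5161, 5160, 3151, 3675 and 3808 CPM in KPG1. The groups did not overlap, by the narrow gap between KP 2 and KPG1 3. On the log2 scale the fitted change was 1.16 (SE 0.35, limma unadjusted p 0.00693, adjusted p 0.243), and 0.83 without KP 1, whose level was the lowest. The unadjusted p stayed under 0.05 whichever library was left out, and no alternative test made the gene pass the threshold.

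Alveolar type 2 cells, the surfactant-producing cells in which these tumours start, are marked by genes that were read beside Cxcl15. Of 11 type 2 and epithelial markers 8 had higher and 3 lower fitted values in KPG1, and none passed the threshold. Sftpc, surfactant protein C, was at 5370 to 19893 CPM in KP and 17478 to 40180 CPM in KPG1 (log2 fold change 1.22, limma adjusted p 0.272). Abca3, the lipid pump of lamellar bodies, was at 338 to 1431 CPM and 1490 to 2659 CPM, without overlap (log2 fold change 0.97, limma adjusted p 0.332). Sftpb, Epcam and Cdh1 had log2 fold changes of 0.21, 0.05 and -0.10, and the keratins Krt8 and Krt18 were lower without overlap at -0.67 and -0.87 (limma adjusted p 0.0699 and 0.0501). The summed marker level was lowest in KP 1 (22389 CPM) and KP 4 (30677 CPM), the tumours that were also lowest in Cxcl15, and lay between 45781 and 82725 CPM in the other 8. KP 2, KP 3 and KP 5 had sums of 60408, 56879 and 59752 CPM, inside the KPG1 range. Surfactant genes weighed heavily in the sum: in KP 5 Sftpb made 24581 CPM and Sftpa1 17059 CPM, with Sftpc at 8437 CPM. In KP 2, KP 3 and KP 5 Cxcl15 lay below that of every KPG1 tumour. Of the listed markers only Abca3, at 1302, 1431 and 1014 CPM, did the same in all of them. The part of these markers in the level of Cxcl15 was not tested.

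Ligands of Cxcr3, which attract activated T and NK cells and are induced by interferon, split in sign. Cxcl10 was at 50.6, 7.23, 9.50, 5.83 and 3.42 CPM in KP and at 3.41, 3.46, 2.63, 1.23 and 5.06 CPM in KPG1. The value of KP 1 was over 5 times that of any other tumour, and KP 5 lay within the KPG1 range. The log2 fold change was -1.68 (SE 0.72, limma unadjusted p 0.0383, adjusted p 0.396). Without KP 1 it was -1.05 (limma adjusted p 0.383), and the unadjusted p stayed under 0.05 in 5 of the 10 fits that left out a library. DESeq2, which made more false calls than limma on simulated counts, gave an adjusted p of 0.0151. Cxcl9 was scarce, at 0.0459 to 0.921 CPM in KP and 0.36 to 0.724 CPM in KPG1 (log2 fold change 1.08, SE 0.64, limma adjusted p 0.545). Cxcl11, annotated as a polymorphic pseudogene, reached at most 25 counts and was not tested, and 39.5% of its read-length positions are shared with Gm2673. Their receptor Cxcr3 had at most 4 counts in any library.

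**Figure D3:**
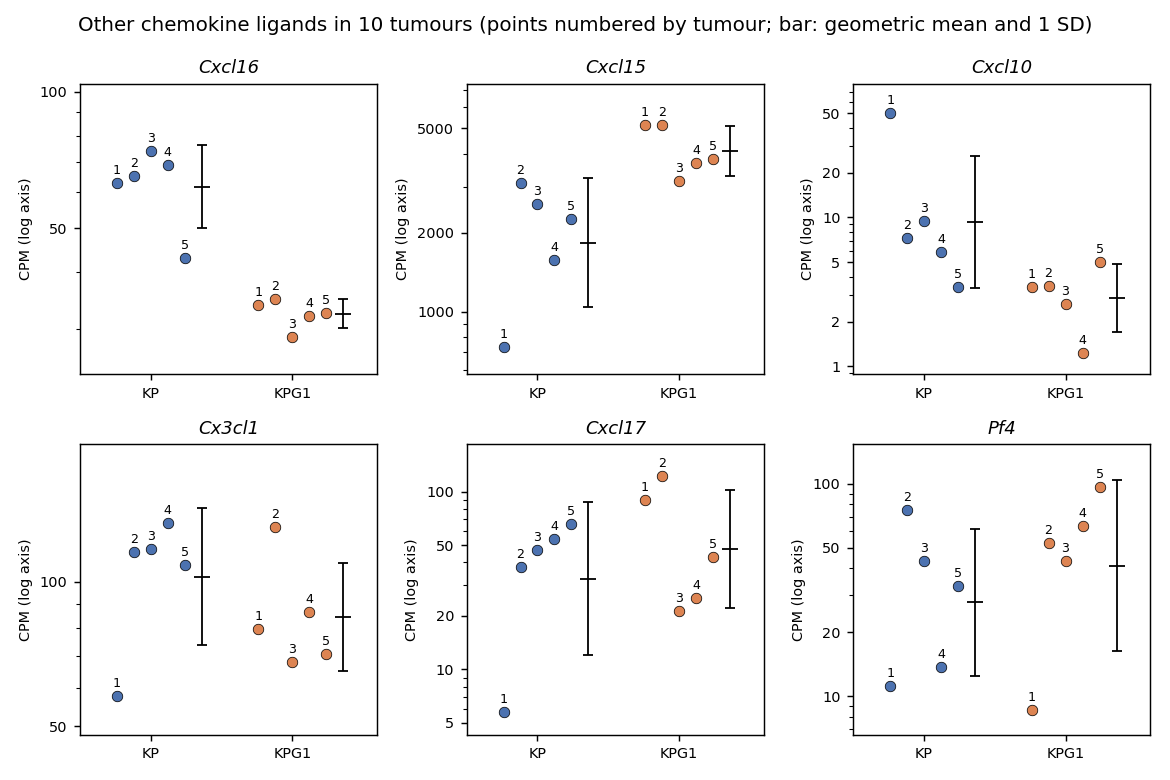
CPM on a log axis of Cxcl16, Cxcl15, Cxcl10, Cx3cl1, Cxcl17 and Pf4 in 5 KP and 5 KPG1 tumours, numbered as in the labels; the black mark with its bar is the geometric mean with 1 SD of the log2 values. Only Cxcl16 and Cxcl15 show no overlap between the groups, and KP 1 stands apart at 50.6 CPM in Cxcl10, 57.7 CPM in Cx3cl1 and 5.74 CPM in Cxcl17.

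Of the remaining CXC ligands, Cxcl17, Pf4 and Cxcl12 were abundant, Cxcl14 low and Cxcl13 too low to test. Cxcl17, a mucosal chemokine of airway epithelium, came next after Cxcl15 at a mean of 67.2 RPKM. It was at 5.74, 37.6, 46.9, 54.3 and 66.1 CPM in KP and at 89.4, 122, 21.3, 25.3 and 43.0 CPM in KPG1. Apart from the low KP 1, the KP tumours lay inside the KPG1 range. Its log2 fold change, 0.57 (SE 0.68, limma adjusted p 0.792), became -0.07 without KP 1.

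Pf4, platelet factor 4, is stored in platelet granules and is also made by some macrophages. It was at 11.2, 74.9, 43.5, 13.7 and 32.9 CPM in KP and at 8.59, 52.8, 43.1, 63.4 and 96.1 CPM in KPG1. Both groups held tumours with low and with high values (log2 fold change 0.59, SE 0.67, limma adjusted p 0.776). The 8 platelet markers were scarce: their sum, most of it Itga2b, was 2.73 to 5.53 CPM in KP and 1.53 to 2.23 CPM in KPG1. Of the 8 markers 3 were tested, all with lower fitted values in KPG1 and none past the threshold, and Gp9 had no count in KP and at most 0.0257 CPM in KPG1.

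Cxcl12, the stromal ligand of Cxcr4 and Ackr3, was at 39.8, 83.9, 91.0, 45.9 and 14.8 CPM in KP and at 169, 57.1, 34.1, 25.9 and 86.6 CPM in KPG1. KP 5 was the lowest and KPG1 1 the highest, and the groups overlapped over most of the range (log2 fold change 0.38, SE 0.57, limma adjusted p 0.837; -0.05 without KP 5 and -0.01 without KPG1 1). KPG1 1 also had the largest sums of fibroblast (397 CPM) and endothelial markers (1404 CPM), and KP 5 the smallest (156 and 300.2 CPM). All 8 fibroblast and all 8 endothelial markers had higher fitted values in KPG1 and none passed the threshold; their part in the level of Cxcl12 was not tested. Cxcl14, an epithelial ligand, averaged 3.95 ± 1.7 CPM in KP and 3.71 ± 1.81 CPM in KPG1 (SD, n = 5 each). Cxcl13, the B cell attractant of lymphoid follicles, was not tested: KPG1 5 held 85 counts and no other library more than 20.

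Among CC ligands none had an unadjusted p under 0.05. All 5 MIP-type ligands were tested, and all had fitted values below 0, from -0.59 for Ccl9 to -0.004 for Ccl3; with edgeR's quasi-likelihood test those of Ccl3, Ccl4 and Ccl5 were above 0. Ccl6, a myeloid chemokine known in mouse as C10, was the most abundant CC ligand at a mean of 13.8 RPKM. It was at 26.0, 23.0, 61.8, 22.1 and 11.7 CPM in KP and at 24.7, 10.6, 32.0, 21 and 14.9 CPM in KPG1, with KP 3 at nearly 2 times the next tumour (log2 fold change -0.34, SE 0.41, limma adjusted p 0.792; -0.02 without KP 3). Ccl9, a myeloid attractant encoded beside it, had means of 5.62 ± 4.45 CPM in KP and 2.89 ± 0.963 CPM in KPG1 (SD, n = 5 each). Ccl3, Ccl4 and Ccl5, which attract monocytes and T cells, were all highest in KPG1 3, at 4.12, 2.58 and 0.906 CPM. Their group means were 2.42 and 2.43 CPM for Ccl3, 1.22 and 1.24 CPM for Ccl4, and 0.374 and 0.384 CPM for Ccl5, in KP and KPG1.

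Macrophage and monocyte markers were read beside these genes. Their sum was highest in KP 3 (247 CPM), the tumour with the highest Ccl6, Ccl9, Ccl17 and Ccl22, and lowest in KPG1 5 (89.0 CPM). KPG1 1 had the next highest sum (233 CPM, of which Ly6c2 made 138 CPM) with Ccl6 and Ccl9 inside the range of the other tumours. Over the groups it ran from 137 to 247 CPM in KP and from 89.0 to 233 CPM in KPG1; 13 of 16 markers had lower fitted values in KPG1 and none passed the threshold. Ptprc, the gene of CD45, was still at 5.21 to 11 CPM after the depletion, so the fraction held some leukocyte RNA in every tumour. KPG1 3, the tumour highest in Ccl3, Ccl4 and Ccl5, had a macrophage and monocyte sum of 176 CPM. It was the highest tumour for Ptprc, Adgre1, Ms4a7, C1qa, C1qc, Ccr2 and Fcgr1, and not for the other markers of that list. The summed T and NK markers were also highest in KPG1 3, at 6.71 CPM, of which Lck made 3.67 CPM. Their sum was 3.08 to 4.39 CPM in the rest of KPG1 and 2.77 to 5.07 CPM in KP. Whether these cells set the levels of the CC ligands was not tested.

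Ligands of Ccr4 and Ccr6 were low apart from single tumours. Ccl17, which attracts Ccr4-positive T cells, was at 2.17, 1.76, 9.93, 1.53 and 0.574 CPM in KP and at 2.56, 2.12, 1.81, 1.4 and 0.950 CPM in KPG1. KP 3 set the sign: the log2 fold change was -0.24 (SE 0.62, limma adjusted p 0.912), and 0.32 without KP 3. Ccl22, its partner ligand, had means of 1.02 ± 0.807 and 1.04 ± 0.446 CPM (SD, n = 5 each) in KP and KPG1. Ccl20, the epithelial ligand of Ccr6, was at 1.4 to 11.4 CPM in KP, with KP 1 the highest, and at 1.27 to 3.90 CPM in KPG1 (log2 fold change -0.92, SE 0.52, limma adjusted p 0.525). Ccl1, the ligand of Ccr8, had at most 1 count in any library.

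The monocyte attractant Ccl2 was scarce, at 1.71 ± 1.05 CPM in KP and 1.03 ± 0.469 CPM in KPG1 (SD, n = 5 each), and Ccl7 more so, at 0.385 ± 0.280 and 0.335 ± 0.296 CPM. Both lay with Ccl8, Ccl11 and Ccl12 in the chromosome 11 cluster, and none of the latter was tested, with at most 5, 15 and 17 counts. The eotaxins Ccl24 and Ccl26 reached at most 22 and 0 counts. The homing ligands, which place lymphocytes in lymphoid organs and mucosa, were low as well: Ccl27a had 2.18 ± 0.268 and 2.42 ± 0.318 CPM, Ccl25 had 1.61 ± 0.654 and 1.74 ± 0.507 CPM, and Ccl28 had 0.359 ± 0.275 and 0.244 ± 0.0760 CPM in KP and KPG1 (SD, n = 5 each). Ccl28 had 0 counts in KP 2, and its fitted log2 fold change of 0.09 ran against the order of the means and became -0.81 without that library. Ccl27a shares 29.9% of its read-length positions with Ccl27b and other copies.

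The members too low to measure were Xcl1, Ccl1, Ccl8, Ccl11, Ccl12, Ccl19, Ccl24, Cxcl11 and Cxcl13, which had a count in at least 1 library, and Ccl21a, Ccl21b, Ccl26, Ccl27b and the second identifier of Ccl25, which had none in any. Xcl1 had at most 5 counts and Ccl19 at most 1. A count of 0 allows up to 3 counts in a library, for counting error only, so these genes were not detectable at this depth and are not shown to be silent. For Ccl21b and Ccl27b 100% and 97.95% of the read-length positions are shared with copies, for Ccl21a 57.0% and for Ccl19 42.7%, so their reads could also have been set aside or split in counting.

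The chemokine ligands varied more from tumour to tumour than most genes. The SD of log2 CPM within KP had a median of 0.99 over the 26 tested members beside 0.39 over all genes tested, and within KPG1 of 0.62 beside 0.26. In each group 24 of 26 members lay above the median of all genes. Cxcl16 had the smallest SD of the members in KPG1, at 0.11, and Cxcl5 the largest, at 1.34. In KP the largest was that of Ccl28, at 1.52, with 0 counts in KP 2. Genes were not matched by level in this comparison, and the SD of scarce members includes more counting error. The SD was larger in KP than in KPG1 for 18 of 26. Single tumours stood at the ends of the range: KP 1 was the highest of 10 for 6 members (Cxcl1, Cxcl10, Cxcl14, Ccl2, Ccl20 and Ccl28) and the lowest for 3 (Cx3cl1, Cxcl15 and Cxcl17), KP 3 was the highest for 6, and KP 5 the lowest for 10.

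**Figure D4:**
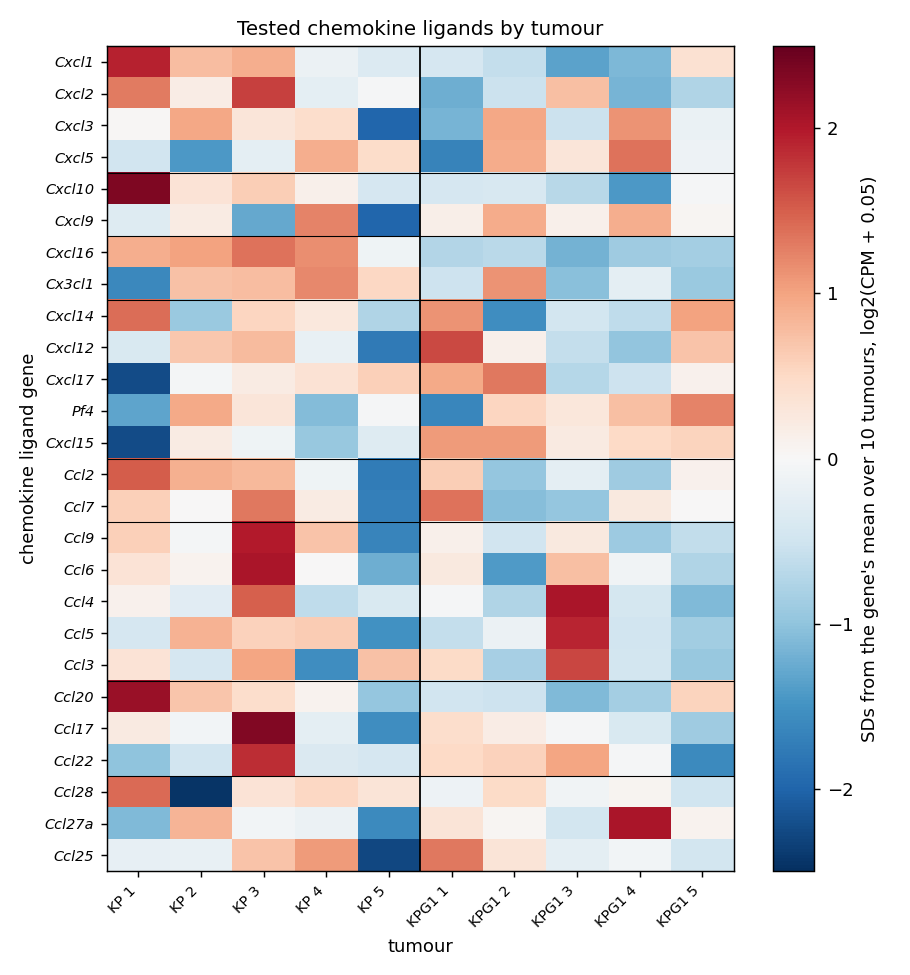
Tested chemokine ligands (rows, grouped by role) in 10 tumours (columns, KP left and KPG1 right); colour gives the number of SDs from the gene's mean of log2(CPM + 0.05), red above and blue below it. Cxcl16 is below its mean in all 5 KPG1 tumours, KP 1 is the highest for Cxcl1, Cxcl10 and Ccl20, KP 3 for Ccl6, Ccl9, Ccl17 and Ccl22, and KPG1 3 for Ccl3, Ccl4 and Ccl5.

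Of 24 chemokine receptor genes 11 were tested, 8 with higher and 3 with lower fitted values in KPG1, and none passed the threshold. The largest mean levels were those of Ackr3, a decoy receptor of Cxcl12 (16.9 to 50.7 CPM in KP, 25.6 to 48.2 CPM in KPG1), of Cxcr4, its signalling receptor (10.7 to 25.3 and 8.24 to 30.4 CPM), and of Ackr2, which degrades inflammatory CC ligands. Ackr2 alone had an unadjusted p under 0.05: it was at 2.32 to 8.85 CPM in KP and 7.0 to 16 CPM in KPG1 (log2 fold change 0.98, SE 0.36, limma adjusted p 0.332). Cxcr6, the receptor of Cxcl16, had at most 22 counts and was not tested.

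Of 13 cytokines known to induce chemokines or to be made with them, 7 were tested, 1 with a higher and 6 with lower fitted values. Tnf, a strong inducer of Cxcl1, Cxcl2 and Cxcl10, fell by 1.85 on the log2 scale (SE 0.21, limma adjusted p 0.00810). It was at 16.8, 17.6, 21.7, 17.2 and 12.9 CPM in KP and at 4.28, 3.33, 6.09, 4.26 and 6.01 CPM in KPG1, with a wide gap between the groups. Il1a, an alarmin that acts through the interleukin-1 receptor, was at 3.30 to 17.2 CPM in KP and 3.08 to 5.66 CPM in KPG1 (log2 fold change -1.38, SE 0.43, limma adjusted p 0.259). Il33, an epithelial alarmin, was at 64.3 to 188 CPM in KP and 202 to 310.3 CPM in KPG1 without overlap (log2 fold change 1.26, SE 0.28, limma adjusted p 0.130). Il1b, the inflammasome product, was at 8.42 to 26.7 and 4.70 to 19.4 CPM (log2 fold change -0.53, limma adjusted p 0.625). The part of these cytokines in the levels of Cxcl1, Cxcl2 and Cxcl10 was not tested.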

How the data were processed

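RNA from the CD45-negative fraction of 10 mouse lung tumours was sequenced from a stranded mRNA kit with single reads of 85 bases. The authors aligned to mm10, and the labels' processing notes name bcl2fastq 2.17, cutadapt 1.4.2, HISAT2, featureCounts 1.4.4 and edgeR; annotation release and strand setting are not given in the sources used here. The deposited counts are raw whole numbers for 39017 Ensembl genes; all 390170 values of the joint table equalled the single files. The deposited table of log2 values was not used.

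Low genes were removed with filterByExpr (edgeR 4.0.16), and the 16216 left were scaled by TMM and fitted with voom and limma 3.58.1 in R 4.3.3, as in the methods of the study except for its filter on TPM, with the group as the only term and Benjamini-Hochberg adjustment over all genes tested (threshold 0.05). SDs and overlaps on the log2 scale used log2 CPM with a prior count of 2. Exon lengths, positions and transcripts shared over 85 bases came from GENCODE M21, which held 39 of the 40 member IDs, and promoters from RefSeq on GRCm38.p6, with entries for 28 symbols. The second ID of Ccl25 had no length. Alternatives were the quasi-likelihood test of edgeR, DESeq2 1.42.0, RLE factors, no filter, a mean CPM of at least 1, quality weights, a replicate block and leaving out each library. Plots were drawn with matplotlib 3.10.9.

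The members and lists were chosen with earlier results of these data known. Every member is named; values in every library are given for the neutrophil attractants, for tested members with an unadjusted p under 0.05 or no overlap, and for the 6 others with the largest RPKM, and receptors and cytokines are named by p or by the 3 largest levels. Cxcr2, Cx3cr1, Cxcr3, Cxcr6 and Il1b were named outside this rule, after their values were seen. Depth was 32427029 to 49534284 counts a library, and floors cover counting error only, since reads carried no molecular identifiers. Tested on simulated counts for 16041 genes, the limma fit of KPG1 against KP found 37 of the 94 simulated 2-fold changes (39.4%) and 85 of the 106 simulated 4-fold changes (80.2%), with 5 of 127 calls false, whereas DESeq2 made 53 false calls of 198. The changed genes were drawn at random from all genes. Chemokine ligands varied more (median SD in KP 0.99 beside 0.39), so these rates may be too high for them.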

Additional observations from a re-analysis of the deposited data

Results flagged for a closer look

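In 52 groups of 5 tumours, a tumour of each group was compared with the rest, and 5 stood further from the nearest other than 0.71 of the group's range, where chance gives about 2.6. Cxcl17 was low in KP 1, with a gap of 0.769 of the range (a log2 CPM of 2.53, with 5.23 to 6.05 for the rest of KP). Cx3cl1 was low in the same tumour, with a gap of 0.760 (5.85 against 6.76 to 7.05). Ccl22 was high in KP 3, with a gap of 0.774 (1.32 against -0.84 to -0.35). Ccl28 was low in KP 2, which held no count of it, with a gap of 0.716 (-4.32 against -1.43 to -0.28). Ccl5 was high in KPG1 3, with a gap of 0.740 (-0.06 against -1.97 to -1.47). The causes were not tested.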

How the results depend on the processing

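Of the 26 tested chemokine ligands 13 kept the direction of their fitted difference under all 17 alternatives that tested them, among them Cxcl1, Cxcl2, Cxcl10, Cxcl15 and Cxcl16, and 13 changed it under at least 1. Called members numbered 1 in the main comparison, 3 with DESeq2 (Cxcl16, Cxcl1 and Cxcl10), 0 with no filter on low counts, 0 with a mean CPM of at least 1 (limma adjusted p of Cxcl16 0.0526 and 0.0527), and 0 to 1 when a library was left out. Members with an unadjusted p under 0.05 numbered 5, 8 with quality weights, and 3 (without KP 3) to 9 (without KP 5) when a library was left out. Genes called numbered 28, 548 with DESeq2, 43 with no filter, 228 with quality weights, and 4 (without KPG1 4) to 294 (without KP 5). No receptor was called under any alternative. Tumours with the same number did not deviate together (r from -0.16 to 0.08, the best match for 1 of 5), so numbers were not taken as pairs; a replicate block gave 5 genes called and 0 members, with an adjusted p of 0.194 for Cxcl16 and a log2 fold change of -0.14 for Ccl28. Other reversed log2 fold changes were, with edgeR, -0.57 for Ccl28, 0.0064 for Ccl3, 0.023 for Ccl4 and 0.056 for Ccl5; with DESeq2, -0.58 for Ccl28, 0.013 for Ccl4 and 0.036 for Ccl5; with no filter, 0.0062 for Ccl3; and with quality weights, -0.063 for Ccl25, -0.38 for Cxcl12 and -0.021 for Cxcl3. Leaving out a library gave -0.72 to 0.32 for Ccl17, -0.031 to 0.52 for Ccl22, -0.11 to 0.38 for Ccl25, -0.81 to 0.53 for Ccl28, -0.22 to 0.12 for Ccl3, -0.36 to 0.15 for Ccl4, -0.39 to 0.14 for Ccl5, -0.77 to 0.22 for Ccl7, -0.045 to 0.68 for Cxcl12, -0.35 to 0.095 for Cxcl14, -0.067 to 0.86 for Cxcl17, -0.41 to 0.39 for Cxcl3 and -0.072 to 0.80 for Cxcl5. The cause was not tested. Members under about 1 CPM rest on few counts.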
